A study of Homo sapiens with 4 samples.

Results

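Nuclear-encoded respiratory chain genes are the genes of the cell nucleus that code for the subunits of complexes I to V of the mitochondrial inner membrane. They were chosen by symbol (NDUF with A, B, C, S or V and a digit, SDHA to SDHD, UQCR, COX4 to COX8 and ATP5), without pseudogene and antisense names, and 86 of the 32955 genes listed were taken. Complex I gave 39 of them, complex II 4, complex III 9, complex IV 15 and complex V 19. A further 40 matching names were left out, 37 of pseudogenes and 3 of antisense transcripts. The rule also takes 2 read-through entries (NDUFC2-KCTD14 and ATP5J2-PTCD1) and ATP5S and ATP5SL, which are named after complex V without being subunits of it. It does not take subunits under other names, such as CYC1 and NDUFAB1. Older symbols are kept as listed: ATP5A1 and ATP5B are the alpha and beta subunits now named ATP5F1A and ATP5F1B.

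The 4 libraries are labelled MDA-MB-231, an established human breast cancer cell line grown in DMEM with fetal bovine serum. Cells were transfected with mimic NC, a negative control RNA duplex, or with miR-217 mimic, a synthetic duplex that stands in for the mature microRNA, and each group had 2 libraries, numbered 1 and 2 in the labels. The series asked which mRNA levels differ between these groups. No untransfected cells were analysed here, and the labels do not say what the library number marks or whether equal numbers were separate cultures, so p-values measure only the spread between these libraries. Reads counted on genes were 57933183 and 47374957 for mimic NC 1 and 2, and 53356283 and 32635814 for miR-217 mimic 1 and 2. The label was checked on marker genes: VIM stood at 27.9 to 36.9 RPKM (reads scaled to gene length in kilobases and to library size) and EGFR at 19.5 to 22.7, while ESR1, GATA3 and CDH1 were below 0.5 in all 4 libraries. KRT8 was at 154 to 421 RPKM, EPCAM at 3.9 to 7.41 and ERBB3 at 1.49 to 2.77, although all had been listed as low or absent. CDKN2A was at 10.5 to 13.2 and CDKN2B at 6.92 to 8.91, although this locus is generally described as deleted in MDA-MB-231. The check left the identity of the cells unsettled, and the cell name used here is that of the labels. The name mimic NC is the study's, for the libraries labelled control.

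The respiratory chain passes electrons from NADH through complex I, or from succinate through complex II, to ubiquinone, then through complex III and cytochrome c to complex IV, where oxygen is reduced. Complexes I, III and IV pump protons, and complex V, the ATP synthase, uses the gradient to make ATP. Complex II is built from nuclear genes alone, whereas the other complexes also hold subunits encoded by mitochondrial DNA. The transcription factors NRF1 and GABP (an ETS factor), together with YY1 and SP1, are long known for sites in the promoters of many of these genes.

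The share of reads on the members differed more between libraries of unlike number than between the groups. The 86 genes took 0.963% of the counted reads of mimic NC 1 (95% Wilson interval 0.961 to 0.966) and 0.864% of mimic NC 2 (0.861 to 0.866). They took 0.950% of miR-217 mimic 1 (0.947 to 0.952) and 0.767% of miR-217 mimic 2 (0.764 to 0.770), the lowest share in the library with the fewest reads. These intervals cover counting error only. From number 1 to number 2 the share was 10.3% smaller in mimic NC and 19.2% smaller in miR-217 mimic. The 13 mitochondrially encoded subunits went the other way: 2.53% of the reads in mimic NC 1, 2.95% in mimic NC 2, 2.57% in miR-217 mimic 1 and 3.63% in miR-217 mimic 2. With mitochondrial genes and the 10 most abundant genes taken out of the denominator, the members' shares were 1.03%, 0.933%, 1.02% and 0.839% in the same order of libraries, so the same libraries stood high and low.

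**Figure D1:**
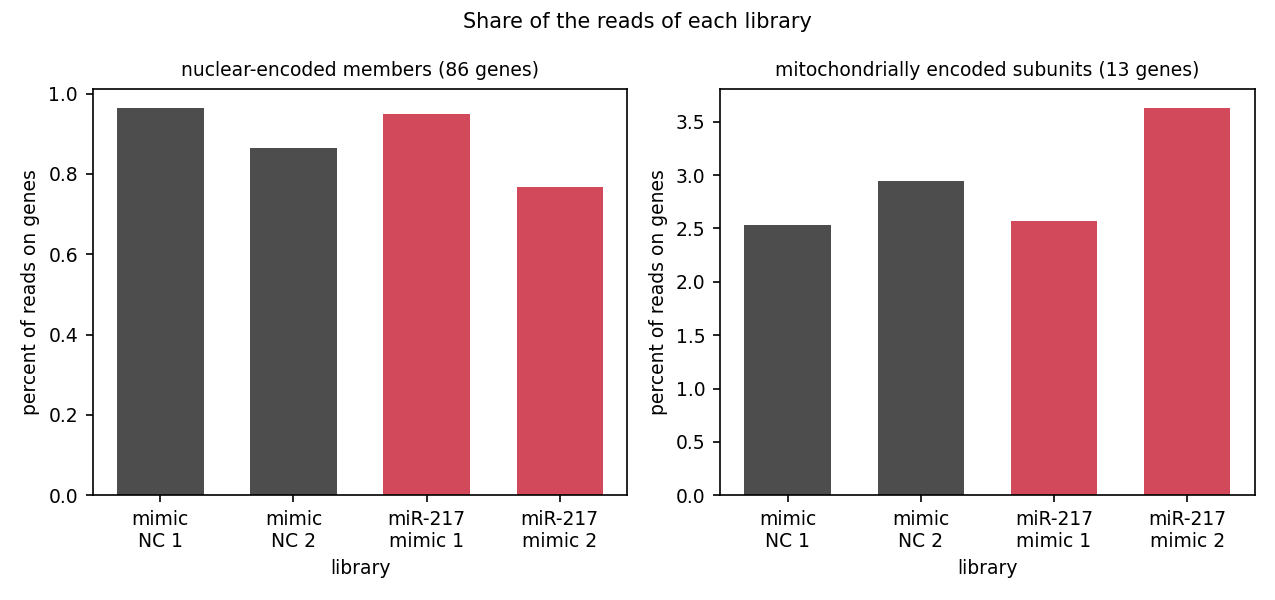
Share of counted reads, in percent on axes from 0, on the 86 nuclear-encoded members (left) and on the 13 mitochondrially encoded subunits (right), 1 bar per library, dark for mimic NC and red for miR-217 mimic. Both libraries numbered 2 are lower on the left (0.864% and 0.767%) and higher on the right (2.95% and 3.63%) than both libraries numbered 1.

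Levels within the pathway spanned 3 orders of magnitude, and all the values here are RPKM, a level per length. Of the 86 members, 81 had a mean of at least 1 RPKM and were tested: 38 of complex I, 4 of complex II, 9 of complex III, 12 of complex IV and 18 of complex V. Their median was 21.7 RPKM, against 5.02 for all 13871 genes tested. The 5 untested members were NDUFA4L2, COX6A2, COX7A1, COX6B2 and ATP5L2. Median levels were 22.1 RPKM for complex I, 11.1 for complex II, 14.7 for complex III, 42.7 for complex IV and 19.6 for complex V. Subunits of 1 complex are assembled in fixed ratios, yet the highest and lowest subunits, leaving out entries that are not subunits and restricted isoforms, were 1520-fold apart in complex I, 7.41-fold in complex II, 67.3-fold in complex III, 13.8-fold among the 10 nuclear subunits of complex IV and 52-fold in complex V, where the subunits ATP5B and ATP5D were the ends. The length that divides the reads is the authors' gene length, which ran from 507 bases for COX8A to 14160 for SDHC, and across the 81 members the log2 level and log2 length had a Pearson r of -0.44 (Spearman rho -0.42). Over all genes tested it was -0.02, and genes of 1 library share its depth, so this is a description only.

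NDUFS5, a small supernumerary subunit of complex I on chromosome 1, held the highest level. It stood at 1999.4 and 1539.7 RPKM in mimic NC 1 and 2 and at 2113.9 and 1609 in miR-217 mimic 1 and 2. This gene alone made up 9.77 to 12.2% of all reads on the members. Without it the members' share was 0.854%, 0.78%, 0.834% and 0.679% in the order above, so the order of the libraries did not rest on it.

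The subunits named here, core subunits and others, were spread over the range. In complex I, NDUFV1, which holds the flavin where NADH is oxidised, was at 23.1 RPKM on average, the iron-sulfur protein NDUFS1 at 20.5 and NDUFS7 at 2.25. In complex II the flavoprotein SDHA was at 35.5 and the iron-sulfur subunit SDHB at 15.5, with the membrane anchors SDHD at 6.62 and SDHC at 4.79. In complex III, UQCRC1 was at 79.3 and the Rieske iron-sulfur protein UQCRFS1, the lowest of its complex, at 4.5, while the hinge protein UQCRH was the highest at 303. In complex IV the nuclear subunits COX6C (150 RPKM), COX4I1 (148) and COX5B (143) lay close together, and COX5A was at 35.7. COX6C and COX4I1 overlapped between libraries, with 141 to 168 RPKM for the first and 125 to 161 for the second. In complex V the catalytic beta subunit ATP5B was highest at 130 RPKM and the alpha subunit ATP5A1 was at 13.1, while the lowest was ATP5S at 1.17. The gene length was 2322 bases for ATP5B and 10908 for ATP5A1. In reads they were nearer, with 18664 and 9384 in mimic NC 1 and 9397 and 4091 in miR-217 mimic 2. The lowest tested genes elsewhere were NDUFA3 (1.2) and COX7B2 (2.99).

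**Figure D2:**
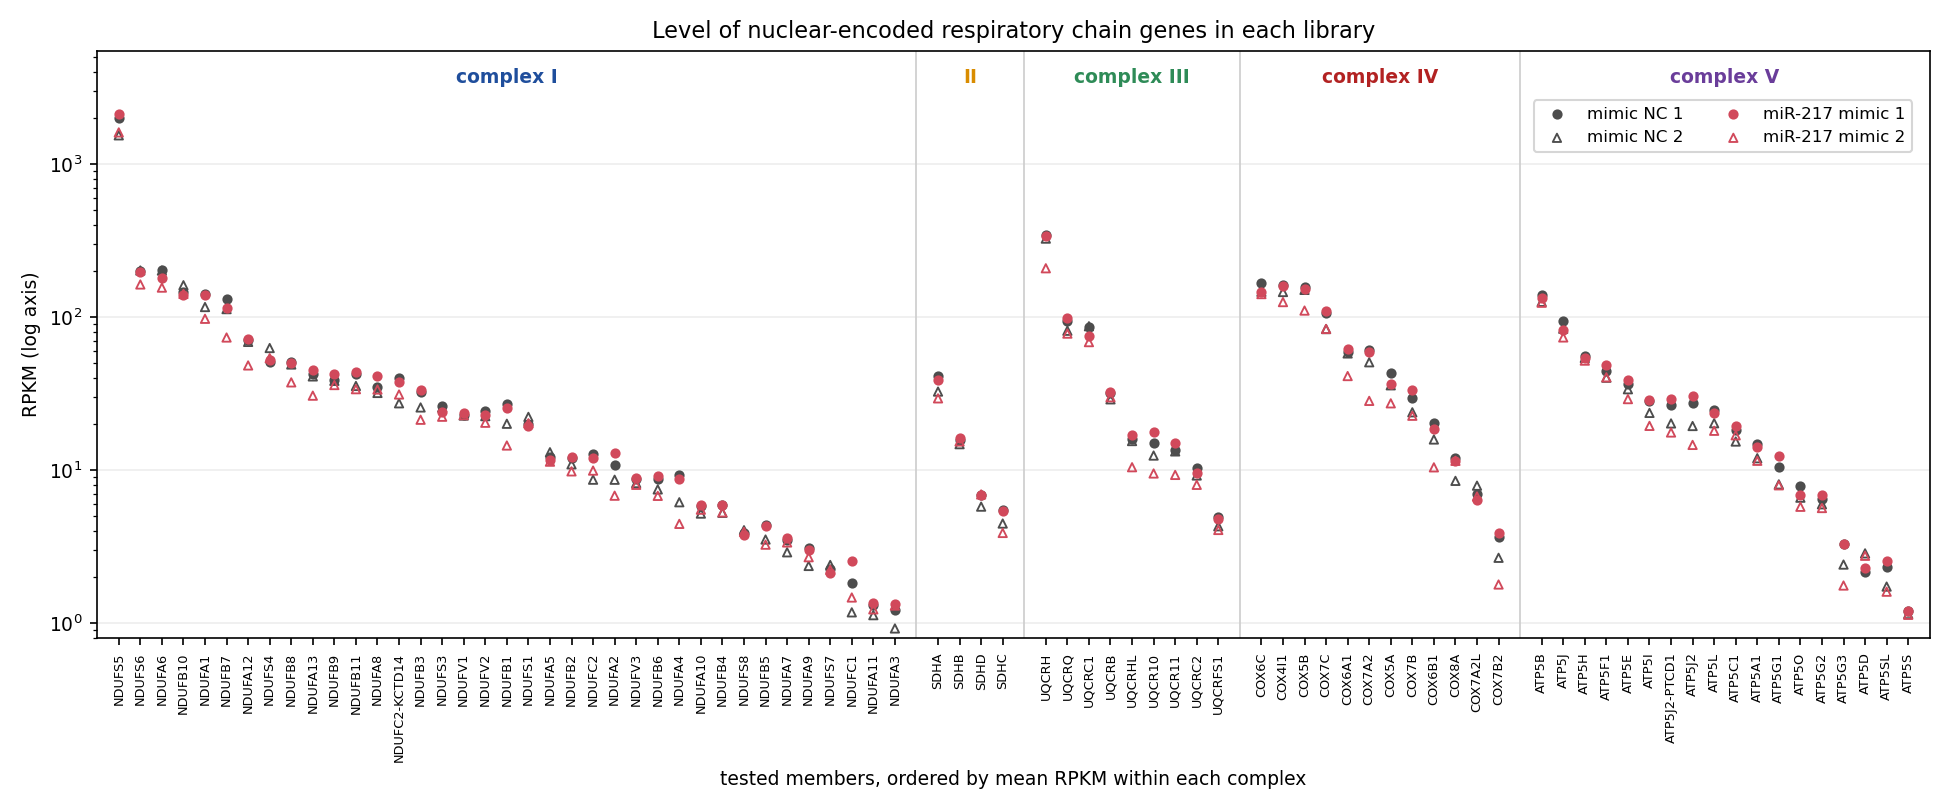
RPKM (log axis) of 80 tested members in each library, ordered by mean level within complexes I to V. Filled circles are libraries numbered 1, open triangles libraries numbered 2, dark for mimic NC and red for miR-217 mimic. Levels run from 1.17 (ATP5S) to 1815.5 RPKM (NDUFS5) on average, and the red triangle of miR-217 mimic 2 is often the lowest mark of a gene.

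Subunits that exist as tissue-restricted isoforms were present mainly as the broadly expressed form. COX6A2 and COX7A1, the heart and muscle isoforms, had 0 reads in 3 of 4 libraries and 2 in the other, and 5, 0, 2 and 2 reads, respectively, against means of 54.9 RPKM for COX6A1 and 49.7 for COX7A2. COX6B2, known from testis, had 16, 8, 12 and 1 reads in the order mimic NC 1, mimic NC 2, miR-217 mimic 1 and miR-217 mimic 2. COX7B2 was the exception among these with 170, 102, 166 and 47 reads, so COX7B was 8.18 to 12.7-fold higher per length. NDUFA4L2, a relative of NDUFA4 that is induced in hypoxia, had 6 and 60 reads in mimic NC 1 and 2 and 10 and 32 in miR-217 mimic 1 and 2, higher in both libraries numbered 2 and below the level tested. UQCRHL was at 14.7 RPKM, 20 to 21.5-fold below UQCRH, but both code for nearly the same protein and reads could be assigned to either.

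No member passed the test between miR-217 mimic and mimic NC. On log2(RPKM + 1) with limma, Benjamini-Hochberg adjusted over all genes tested, 0 of the 81 members and 0% of all 13871 genes were called at an adjusted p under 0.05. At an unadjusted p under 0.05, limma gave 0 members against 1.19% of all genes, and with a log2 fold change of at least 0.32 as well, 0 members against 1.15%. limma-voom on the reads also gave 0 members at either p, against 0.591% of all genes at the unadjusted p and 0 genes at the adjusted one. With the library number as a block, limma gave 7 members (8.64%, against 7.54% of all genes) at the unadjusted p. Past both lines it gave 2 members (2.47%, against 3.51%), and 0 had an adjusted p under 0.05. Values of single genes for this contrast below come from the fit without this block. An exact permutation test of 2 against 2 libraries cannot go below 0.333. Both mimic libraries lay below both mimic NC libraries for 11 members, 13.6%, against 13.5% of all genes, and above them for 2 members, 2.47%, against 9.72%. The median log2 fold change of the members was -0.07, with -0.017 over all genes, and 56 of 81 were below 0, against 7714 of all 13871 genes.

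The pairs of libraries of 1 number differed in this. Between the libraries numbered 1 the members' median difference was -0.003 (42 of 81 below 0), and between those numbered 2 it was -0.136 (62 of 81 below 0). Over all 13871 genes tested these medians were -0.013 (7572 below 0) and -0.021 (7507 below 0). By complex the medians over both pairs were -0.04 for complex I, -0.025 for II, -0.143 for III, -0.163 for IV and -0.045 for V. Without miR-217 mimic 2 the members' median was 0.087, and all 5 complex medians were above 0, from 0.074 for IV to 0.125 for V. Without mimic NC 1 the members' median was 0.028. Without miR-217 mimic 1 the medians of complexes III and IV were -0.335 and -0.383. Without miR-217 mimic 1, 12 members (14.8%) had an unadjusted p under 0.05 in limma, against 6.24% of all genes, and their smallest adjusted p was 0.615. The members' median was then -0.197, against -0.033 over all genes. In that fit the group of miR-217 mimic is 1 library, assumed to vary like the mimic NC pair.

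The lowest log2 fold change belonged to COX7A2, a small subunit of complex IV. It stood at 60.9 and 50.6 RPKM in mimic NC 1 and 2 and at 59.1 and 28.3 in miR-217 mimic 1 and 2. Only miR-217 mimic 2 was apart, and the log2 fold change was -0.43 ± 0.36 (SE, n = 2 libraries per group, limma adjusted p = 1). NDUFB7 of complex I had 131.8 and 112.6 RPKM in the control libraries and 113.8 and 73.5 in those of the mimic, so the groups overlapped. Its log2 fold change was -0.41 ± 0.25, but -0.097 without miR-217 mimic 2 and -0.722 without miR-217 mimic 1. UQCRC1, a core protein of complex III, had the smallest unadjusted p of the members (0.0912 in limma). It was at 86.5 and 87 RPKM in the control libraries and at 75.3 and 68.5 in those of the mimic, so the groups did not overlap, and the log2 fold change was -0.27 ± 0.13 with a 95% interval of -0.6 to 0.06. The lowest values of the other complexes were -0.33 for UQCRH, -0.19 for ATP5J and -0.11 for SDHA. The highest were 0.26 for NDUFC1, 0.17 for COX8A, 0.12 for SDHD, 0.11 for ATP5C1 and 0.03 for UQCRB, none past an unadjusted p of 0.05 in limma.

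**Figure D3:**
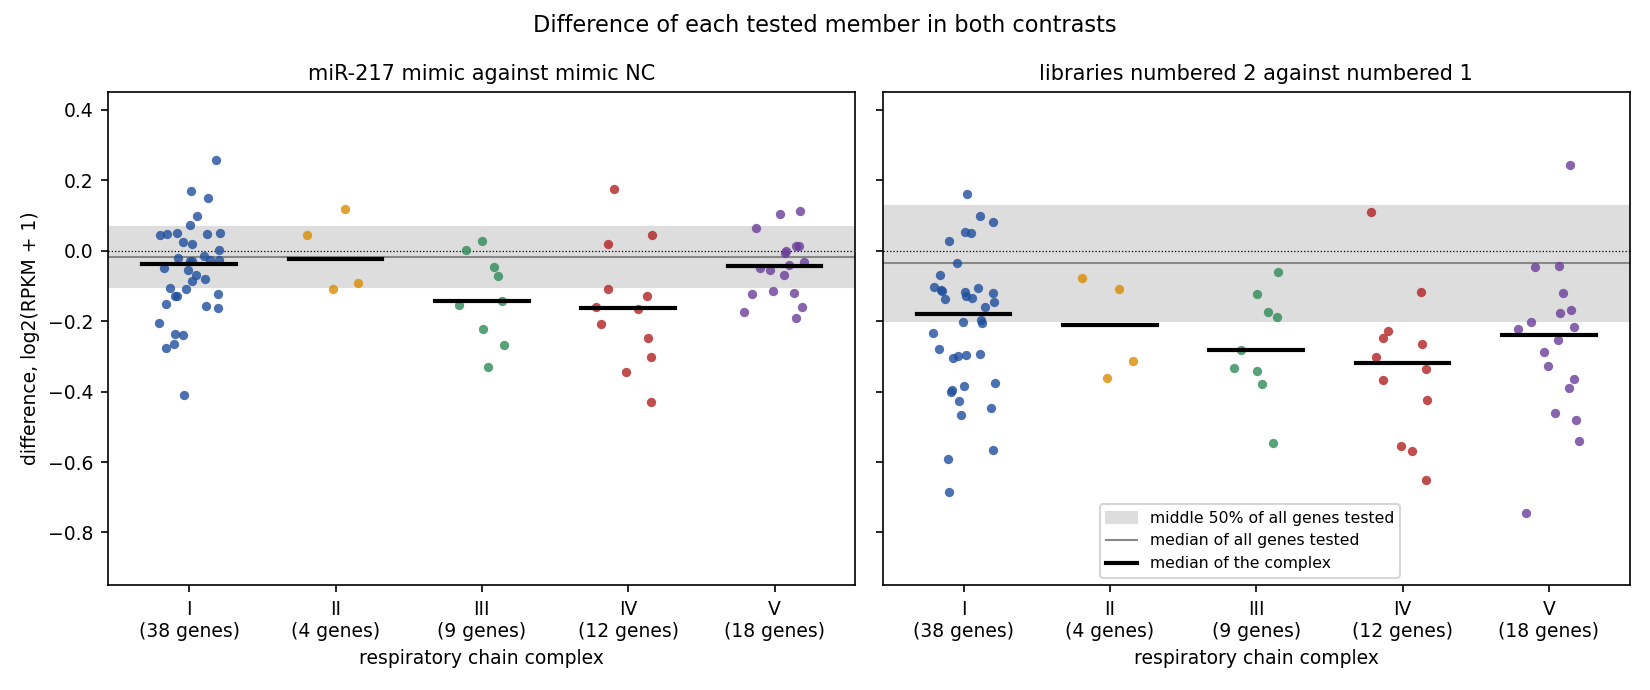
Difference on log2(RPKM + 1) of each tested member (points, by complex) for miR-217 mimic against mimic NC (left) and for libraries numbered 2 against numbered 1 (right). Black bars are medians of a complex and the grey band holds the middle 50% of all 13871 genes tested (-0.103 to 0.067 left, -0.201 to 0.127 right). On the right all 5 complex medians are below 0, from -0.318 to -0.179.

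Members with a match to the miR-217 seed were looked at next, since a microRNA pairs with its targets mainly through this part. The seed (bases 2 to 8, in capitals) of mature miR-217-5p, from RefSeq at chr2:55983020-55983042 (GRCh38, minus strand), and the matching letters ATGCAGT in 3′UTRs of GENCODE 29 (GRCh38) are shown with the bases around them, in capitals with the A that makes an 8-base site where there is one:
miR-217-5p: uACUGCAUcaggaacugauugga
COX5A, chr15:74919932-74919960, minus strand: cttgaggatgtgctATGCAGTAgccaagc
COX7A2L, chr2:42349739-42349767, minus strand: cctttataaccataATGCAGTtgtcagac
NDUFB4, chr3:120602095-120602123, plus strand: tgggttgtgccaaaATGCAGTttttctta
ATP5S, chr14:50333282-50333310, plus strand: gatgataaaacaggATGCAGTAaagaagc
ATP5F1, chr1:111462306-111462334, plus strand: accttgaggacgttATGCAGTtttacagg
Such a match was present in 9 of 81 tested members, 11.1%, against 14.4% of the 10131 tested genes with a 3′UTR. The members' 3′UTRs are also shorter, with a median of 449 bases against 1324. A match is a description of the letters and not a shown site.

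The 9 members with a match were ATP5F1, NDUFC2, ATP5S, COX5A, COX7A2L, NDUFS1, NDUFB4, NDUFB2 and COX7B, and the untested COX6B2 also held one. Their log2 fold changes had a median of -0.007, against -0.07 for all members, and ran from -0.303 to 0.063. An 8-base site was present in COX5A and ATP5S, and ATP5S was at -0.007. COX5A, a nuclear subunit of complex IV, was the lowest. It stood at 43 and 35.8 RPKM in mimic NC 1 and 2 and at 36.6 and 27.3 in miR-217 mimic 1 and 2, so the groups overlapped. The log2 fold change of COX5A was -0.30 ± 0.19 (SE, limma adjusted p = 1). It was -0.098 without miR-217 mimic 2 and -0.509 without miR-217 mimic 1. COX7A2L, a protein of respiratory supercomplexes, was at 7 and 7.9 RPKM in the control libraries and at 6.38 and 6.71 in those of the mimic (-0.16 ± 0.12), and it was the only one of the 9 whose groups did not overlap, while 13.5% of all genes were lower without overlap. ATP5F1, the b subunit of the stator of complex V, was the highest, at 44.5 and 40.1 RPKM against 48.4 and 40.4.

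Between the libraries numbered 2 and those numbered 1 the members lay lower as a list. Their median difference was -0.233 on log2(RPKM + 1), against -0.035 for all genes tested, and 73 of 81 (90.1%) were below 0, against 55.8% of all genes. Both libraries numbered 2 were below both numbered 1 for 64 members, 79%, against 35.5% of all genes. They were above for 4 members, 4.94%, against 26.9%. In limma with the number as the only term, 31 members (38.3%) were lower at an unadjusted p under 0.05 against 17.4% of all genes, and 1 (1.23%) was higher against 12.8%. After adjustment over all genes, 2 members (2.47%) fell, against 3.71% of all genes, and 0 rose, against 3.34%. The number of calls depended on single libraries: it was 0 without mimic NC 1 (0.036% of all genes lower), 0 without miR-217 mimic 1 (0.0505%), 42 (51.9%, against 17.3% of all genes) without mimic NC 2 and 10 (12.3%, against 6.88%) without miR-217 mimic 2. Each of these fits compares 1 library with 2, the lone one assumed to vary like the pair. limma-voom on the reads called 23 members, all lower (28.4%), against 9.1% of all genes.

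The 2 members that fell were COX7C and ATP5J2-PTCD1. COX7C, a small subunit of complex IV on chromosome 5, stood at 106.6 and 109.3 RPKM in the libraries numbered 1 and at 83.4 and 83.6 in those numbered 2, in each case mimic NC first. The 2 libraries of each number were close and far from the other number, with a difference of -0.37 ± 0.07 (SE, limma adjusted p = 0.0472). The adjusted p was 0.355 without mimic NC 1 and 0.345 without miR-217 mimic 1. ATP5J2-PTCD1, a read-through entry, was at 26.7 and 29.1 RPKM against 20.2 and 17.6 (-0.54 ± 0.10, adjusted p = 0.0443), which became 0.236 and 0.274 without those same libraries. It shares 88.3% of its exon bases with other genes on the same strand, ATP5J2 and PTCD1, so its reads could not be told from theirs. With the group as a block both calls were lost (adjusted p = 0.0523 for COX7C and 0.0515 for ATP5J2-PTCD1) and the only member called by limma was NDUFA4 (adjusted p = 0.0407).

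The largest difference of a member was that of ATP5J2 itself, the f subunit in the membrane sector of complex V on chromosome 7. It stood at 27.4 and 30.4 RPKM in mimic NC 1 and miR-217 mimic 1 and at 19.4 and 14.6 in mimic NC 2 and miR-217 mimic 2, a difference of -0.75 ± 0.15 (limma adjusted p = 0.0518). NDUFA4, taken here with complex I by name but nowadays assigned to complex IV, was at 9.32 and 8.76 RPKM against 6.16 and 4.45 (-0.69 ± 0.14). In both genes miR-217 mimic 2 was the lowest library and the numbers did not overlap. The same held for NDUFB1 (-0.59), COX7B2 (-0.57), NDUFA2 (-0.57) and COX6B1 (-0.55), each with a limma adjusted p between 0.0779 and 0.139. COX7A2 reached -0.65 ± 0.27 with an unadjusted p of 0.0603. In complexes II and III the lowest were SDHA at -0.36 ± 0.08, with 41.2 and 39 RPKM against 32.6 and 29.4, and UQCR10 at -0.55 ± 0.15.

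The classes of subunits are described along the same contrast, without a test of their differences. The 7 core subunits of complex I had a median of -0.034, near that of all genes, and 4 of them were below 0. The 30 supernumerary subunits had a median of -0.219, with 27 below 0. They include NDUFA4, the lowest of them (-0.69), which is nowadays assigned to complex IV. Of the 30, 11 were lower at an unadjusted p under 0.05 in limma, as were 0 of the 7 core subunits and 17.4% of all genes. NDUFS1 of the core, at 20 and 19.5 RPKM against 22.3 and 20.2, and the supernumerary NDUFS4, at 51 and 52.7 against 62.7 and 53.8, had the highest values of complex I (0.10 ± 0.08 and 0.16 ± 0.10). In complex III the 3 core members had a median of -0.174 and the 6 supernumerary ones -0.337, but this order held between the miR-217 mimic libraries (-0.19 and -0.645) and not between the mimic NC libraries (-0.149 and -0.105). In complex V the catalytic F1 sector had a median of -0.216 over 5 members and the membrane sector with the stalk -0.275 over 10, all 10 below 0. The 10 nuclear subunits of complex IV had a median of -0.318, all below 0. Over all 12 tested genes of complex IV the median was -0.193 without miR-217 mimic 2 and -0.474 without mimic NC 2, and over complex III it was -0.282, or -0.098 without miR-217 mimic 2. In complex II, with a median of -0.21, the flavoprotein SDHA was lowest (-0.36), followed by the membrane anchor SDHC (-0.31), and the anchor SDHD (-0.11) and SDHB (-0.08) were nearer 0. ATP5D, the delta subunit of F1, was the only member higher at an unadjusted p under 0.05, with 2.14 and 2.28 RPKM against 2.85 and 2.75 (0.24 ± 0.08, limma adjusted p = 0.125). COX7A2L was also higher in number 2 by its mean (0.11 ± 0.10), but its libraries overlapped.

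The difference was present in each group and larger with miR-217 mimic. The median of the members was -0.173 between the mimic NC libraries and -0.281 between the miR-217 mimic libraries, with -0.029 and -0.034 for all genes. Of the 81 members, 71 were below 0 in mimic NC, 73 in miR-217 mimic and 70 in both, 86.4% against 42.6% of all genes. The difference was more negative in miR-217 mimic for 61 members, 75.3%, against 51.3% of all genes. These 4 libraries also differed in depth, and miR-217 mimic 2 had the fewest reads. The part of depth in the result was not tested. Over the 81 members the 2 differences had a Pearson r of 0.55 (Spearman rho 0.54) and over all genes 0.68 (rho 0.65), as a description, since genes of a library are not independent.

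**Figure D4:**
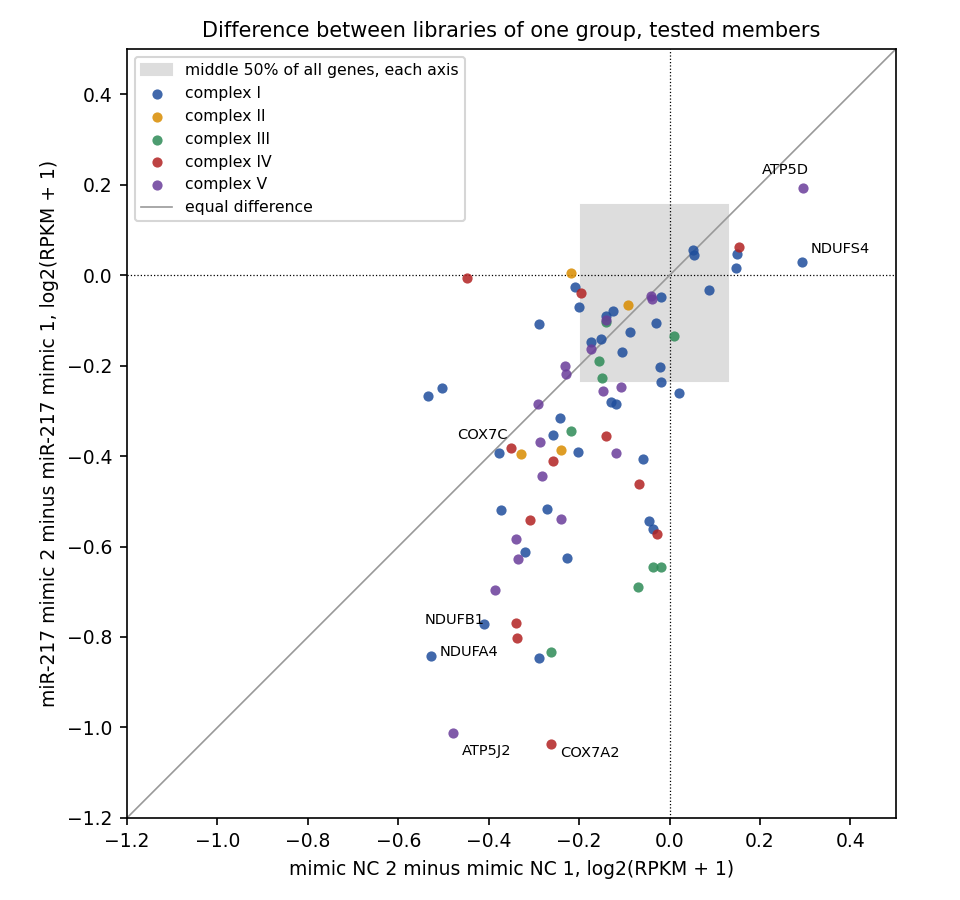
Difference of number 2 from number 1 on log2(RPKM + 1) for each tested member, in mimic NC (horizontal) and in miR-217 mimic (vertical), coloured by complex. The grey box spans the middle 50% of all genes on each axis and the diagonal marks equal differences. 70 of 81 members lie below 0 on both axes and 61 lie under the diagonal.

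Gene models of the members were compared along GC content and length. The 27 members of lowest GC content had a median of -0.202 and the 27 of highest GC -0.294, against 0.006 and -0.06 for all genes in the same ranges. The difference and GC content had a Pearson r of 0.09 over the members, against -0.09 over all genes. For the difference and log2 length it was 0.33 (rho 0.39), against 0.06 over all genes. Shifting each gene by the median of its length decile left a members' median of -0.191, and by its GC decile, chosen after seeing the data, -0.21. The 39 tested members that share no exon bases with another gene, a choice also made after seeing the data, had a median of -0.264. The part of RNA quality was not tested.

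The other genes of the pathway did not form a single pattern along the library number. Of the 13 mitochondrially encoded subunits, 10 had both libraries numbered 2 above both numbered 1, against 26.9% of all genes. In 2 of the subunits both libraries numbered 2 lay below, against 35.5% of all genes. The median of the 13 was 0.309. MT-ND5 and MT-ND6, subunits of complex I, rose: MT-ND6 was at 1505.8 and 1579.9 RPKM in mimic NC 1 and miR-217 mimic 1 and at 3165.6 and 4169.8 in mimic NC 2 and miR-217 mimic 2 (1.24 ± 0.16, limma adjusted p = 0.0294), and MT-ND5 differed by 1.03 ± 0.18 (adjusted p = 0.043). MT-CO2, a catalytic subunit of complex IV, had the lowest value of this list (-0.28). LRPPRC, which stabilises mitochondrial mRNAs and is listed with the 24 tested assembly factors of complex IV, also rose, from 24 and 24.3 RPKM to 39.7 and 40.8 (0.71 ± 0.07, adjusted p = 0.0171). In that list COX14, named because it was the only one called in the other direction, fell (-0.55, adjusted p = 0.03), and PET100 was lowest (-1.01, adjusted p = 0.0855). Over all genes tested, 514 fell and 463 rose in limma, but 5 and 4 without mimic NC 1 and 7 and 6 without miR-217 mimic 1.

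None of the assembly factors of complexes I (18 genes), II (4) and III (6), or of the complex V list (8), passed the adjusted test in limma. At an unadjusted p under 0.05, 3, 2, 2 and 0 of them were lower, against 17.4% of all genes, and 2, 0, 1 and 0 higher, against 12.8%. Their extremes were NDUFAF2 (0.40) and ATP5SL (-0.36), the second being a member that is also listed as a complex I assembly factor, SDHAF1 (0.25) and SDHAF2 (-0.43), TTC19 (0.33) and UQCC1 (-0.40), and TMEM70 (0.16) and C14orf2 (-0.28). The complex V list also holds C14orf2 and USMG5, small ATP synthase subunits that the symbol rule does not take, and the inhibitor ATPIF1. Among 19 genes of the citric acid cycle, pyruvate dehydrogenase and pyruvate carboxylase, OGDH fell (-0.64, limma adjusted p = 0.0313). OGDH is part of the 2-oxoglutarate dehydrogenase, and DLD, a partner in the same enzyme, was highest (0.29). Among 14 supercomplex and cristae factors the prohibitin PHB fell (-0.45, adjusted p = 0.0355) and PHB2 was highest (0.23). The 77 mitochondrial ribosomal proteins had a median of -0.062. Of them 1 fell, MRPS14 (-0.53, limma adjusted p = 0.0337), against 3.71% of all genes. A further 2 rose, MRPS10 (0.52, adjusted p = 0.0321) and MRPL58 (0.40, adjusted p = 0.041), against 3.34% of all genes. MRPL27 had the lowest value (-0.54) with a limma adjusted p of 0.0568. MRPS14 and MRPL58 were named after their values were seen. The 8 mobile carriers and their partners ran from -0.35 (ETFB) to 0.20 (ETFA). Among 17 regulators, the transcription factor gene NRF1 was lowest, at 2.54 and 2.91 RPKM against 2.08 and 1.92 (-0.31 ± 0.09, limma adjusted p = 0.106), and NRIP1, a corepressor, was highest (0.48).

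**Figure D5:**
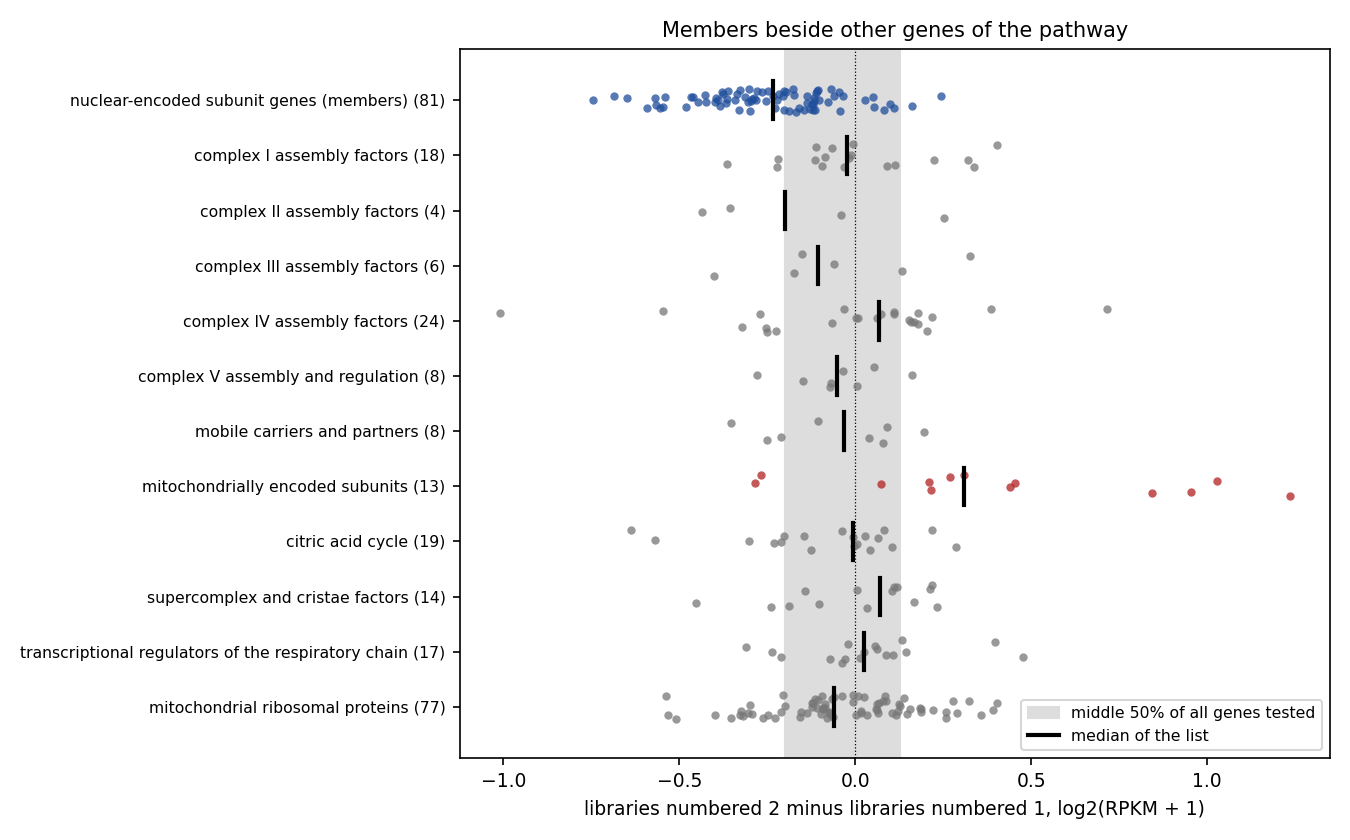
Difference of libraries numbered 2 from those numbered 1 on log2(RPKM + 1) for the members (blue), the mitochondrially encoded subunits (red) and the other lists (grey), 1 point per tested gene, with the number of genes in brackets. The black bars are medians (-0.233 for the members, 0.309 for the mitochondrially encoded subunits) and the grey band is the middle 50% of all genes tested.

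Between miR-217 mimic and mimic NC, 0 genes of these lists had an adjusted or an unadjusted p under 0.05 in limma, against 0% and 1.19% of all genes. All 13 mitochondrially encoded subunits had a positive log2 fold change (median 0.114, from 0.022 for MT-ND1 to 0.421 for MT-ND3). In none of them were both mimic libraries above both mimic NC libraries, against 9.72% of all genes. Between the libraries numbered 1 the median was 0.049 with 5 of 13 below 0, and between those numbered 2 it was 0.249 with 0 below 0. The coactivator gene PPARGC1A had the smallest unadjusted p among the extremes of the lists (0.0624 in limma), at 4.52 and 5.09 RPKM in the control libraries and 3.79 and 3.7 in those of the mimic (-0.29). The other extremes were TMEM126B (-0.24) and NDUFAF4 (0.14), SDHAF1 (-0.14) and SDHAF4 (0.09), TTC19 (-0.11) and BCS1L (0.13), PET100 (-0.44) and TACO1 (0.17), ATPIF1 (-0.30) and ATPAF2 (0.05), COQ9 (-0.16) and COQ2 (0.05), IDH2 (-0.20) and CS (0.20), C19orf70 (-0.26) and HIGD2A (0.20), MRPL41 (-0.35) and MRPL40 (0.22), and MYC (0.23) among the regulators.

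Since most members were lower together in the libraries numbered 2, their promoters were searched for the letters of 4 known sites. RefSeq promoters (250 bases before to 50 after a start, GRCh38.p14) were given for 65 tested members. The NRF1 site GCATGCGC, on either strand, is shown in capitals for 1 gene of each of 4 complexes, on the strand of the gene:
NDUFS7, chr19:1383823-1383852, plus strand: ttccggtttccGCATGCGCtccgagccgct
SDHB, chr1:17054214-17054243, minus strand: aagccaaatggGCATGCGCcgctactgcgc
COX5B, chr2:97645915-97645944, plus strand: ggcagagctggGCATGCGCaatttccgccc
ATP5J, chr21:25735156-25735185, minus strand: ccactcaaagaGCGCATGCgtacagagcaa
These letters were present in 13 of 65 members, 20%, against 6% of the 8718 tested genes with a promoter and 3.3% of all 27305 promoters. The YY1 letters AAGATGGCG were present in 12.3% of members against 4.5% of tested genes, and the ETS letters CCGGAAGT in 13.8% against 9.7%. The SP1 box GGGGCGGGG was present in 13.8% against 27.5%. COX5B, a subunit facing the matrix, held the NRF1, ETS and SP1 letters, and NDUFS7 and SDHB both held NRF1 and YY1 letters.

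The medians of members with and without these letters were set side by side along the library number. Those with the NRF1 letters had a median difference of -0.168 between number 2 and number 1, against -0.285 for the 52 members whose promoter lacked them. For the YY1 letters the medians were -0.095 over 8 members and -0.282 over 57, for the ETS letters -0.264 over 9 and -0.228 over 56, and for the SP1 box -0.233 over 9 and -0.237 over 56. These medians are descriptions without a test, and promoters of 16 tested members were not used here.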

How the data were processed

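RNA of cells labelled MDA-MB-231, transfected with mimic NC or miR-217 mimic (2 libraries each), had been extracted with TRIzol and made into stranded mRNA libraries. The authors deposited RPKM per gene. The submitters' processing notes name Trimmomatic 0.36, featureCounts of Subread 1.5.1, edgeR 3.12.1 and hg38, and the aligner, the annotation release and whether counting used strand were not given in the sources used here. All nonzero values were whole reads within 0.1 after multiplication by length and scaling, which gave the read totals and the counting error of the shares, while intervals of differences come from the spread between libraries.

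Genes whose RPKM averaged 1 or more were tested on log2(RPKM + 1) with limma 3.58.1 (R 4.3.3, variance trend, two-sided, Benjamini-Hochberg over 13871 genes), so that changes of low genes are understated. Terms were the group, or the library number. The script was tested on simulated data. GC content and 3′UTRs came from GENCODE 29, where 83.2% of tested genes and all 86 members matched by symbol or RefSeq synonym. Shared exon bases came from the exon positions that the authors deposited with the RPKM. Promoters (68 of 86 members) and the microRNA came from RefSeq. Members, lists and tests were chosen with earlier results of these data known. Genes named are the highest and lowest members of each complex, core and other listed subunits, isoform genes and those with a seed match. In each contrast the extremes of each complex and list are named too. So are members with an unadjusted p under 0.05 in limma (at most 6 rises and 6 falls). Alternatives were other pseudocounts, filters, centring, limma-voom, no trend, blocks, gene length and GC shifts and leaving out each library. The values of 1 tested member of complex I are not reported here singly.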

Additional observations from a re-analysis of the deposited data

How the results depend on the processing

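For miR-217 mimic against mimic NC, 0 members had an adjusted p under 0.05 under every alternative run, and the members' median stayed between -0.095 and -0.04 except when a library was left out, where it ran from -0.197 to 0.087. Members past both an unadjusted p of 0.05 and a log2 fold change of 0.32 numbered 2 with the replicate block (2.47%, against 3.51% of all genes) and 0 to 12 when a library was left out, 12 without miR-217 mimic 1 (14.8%, against 6.24%). With this replicate block 7 members (8.64%, against 7.54% of all genes) had an unadjusted p under 0.05 and 0 an adjusted one. Libraries with the same number deviated together (correlation 0.68 over all genes, 0.55 over the members), but 2 pairs cannot show that the numbers mark a shared origin. For number 2 against number 1, the count of called members was 2 in the report and 0 with no filter on low values (all genes 0.00607%), 10 with a minimum mean of 5 RPKM (15.2%, against 8.37% of all genes lower), 1 with median centring (1.23%, against 3.54%), 23 with limma-voom (28.4%, against 9.1%), 0 without a variance trend (all genes 3.24%), 1 with the group as a block (NDUFA4, in place of the 2 named in the report, 1.23% against 4.69%), 1 after the shift by gene length deciles (1.23%, against 3.25%), 5 after the shift by GC deciles, added after seeing the data (6.17%, against 4.86%), 32 by unadjusted p in either direction (39.5%, against 30.2%), and 0 to 42 when a library was left out (all genes 0.036 to 17.3%). The cause was not tested. The members' median of this contrast was below 0 in each of these settings, -0.308 to -0.151 with a library left out. With mitochondrial and the 10 most abundant genes out of the denominator the shares were 1.03%, 0.933%, 1.02% and 0.839%.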
